A study of Homo sapiens with 2 samples.

Results

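The cell-cycle genes described here are 45 genes that encode cyclins, cyclin-dependent kinases (CDKs), CDK inhibitors, replication licensing factors and mitotic regulators, out of 20007 protein-coding genes in the annotation. They were taken from a fixed list by symbol, and all 45 were found. By the role of their proteins, 9 were grouped as G1 genes, 16 as S-phase genes and 18 as mitotic genes, and the remaining 2, CDK7 and CCNH, encode subunits of the CDK-activating kinase. Chromatin accessibility at these genes was read from ATAC-seq, an assay that uses the Tn5 transposase to tag open DNA, in wild-type BEAS-2B (B2B) cells. B2B is an SV40-immortalized human bronchial epithelial line, and both replicates are of this 1 condition, so no groups were compared. Nothing in the labels says whether the replicates came from separate cultures, and the spread between them may therefore be technical.

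D-type cyclins with CDK4 and CDK6 drive cells through G1, and cyclin E or A with CDK2 starts and sustains DNA replication, while cyclin B with CDK1 drives mitosis. The promoters of these genes are known to be timed in different ways. Many genes of the G1/S transition carry binding sites for E2F factors, which the RB family holds in check, whereas many mitotic genes carry a cell-cycle genes homology region (CHR), bound by the DREAM and MuvB complexes, often beside CCAAT boxes bound by NF-Y. The SV40 large T antigen that was used to immortalize such lines binds the RB family, so B2B cells are a limited model of normal control at this step.

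Replicate 1 had 28735 peaks and replicate 2 had 36162 on the autosomes, X and Y. Read totals are not in the lists, but the number of fragments at each summit could be worked out for 99.9% of peaks of either replicate, from the fold enrichment together with the −log10 p. It had a median of 35 in replicate 1 and 30 in replicate 2 and was never under 16 and 13, so that weaker accessibility was not detectable and a promoter with no peak is not shown to be closed. The defining epithelial promoters did not bear out the labelled cell type, and their missing peaks do not refute it. KRT18 alone of 12 epithelial marker genes was open in both replicates, with no promoter peak at CDH1, EPCAM, KRT5 or TP63 in either. The KRT18 summits lay 752 and 746 bp downstream of its start site. Of 12 mesenchymal marker genes 9 were open, beside 52.3% of all protein-coding genes. The epithelial promoters held a median of 44.5 CpG dinucleotides within 500 bp of the start site, beside 52 for the mesenchymal and 66 for all genes. A single start site of each gene was read.

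Most of the cell-cycle genes had an open promoter in B2B cells. A peak lay within 1 kb of the canonical transcription start site (TSS) in both replicates for 39 of the 45 genes, or 86.7%, against 52.3% of all protein-coding genes. Replicate 1 had 39 of them (53.2% of all genes) and replicate 2 had 41 (58% of all genes). By class these were 7 of 9 G1 genes, 15 of 16 S-phase genes, 15 of 18 mitotic genes and both CDK-activating kinase genes. Nearly all of these genes have CpG-rich promoters, which are open in most cells: 43 of the 45 had at least 41 CpG dinucleotides within 500 bp of the TSS. Among all genes in the same CpG range 70.4% were open in both replicates, beside 38 of the 43 cell-cycle genes, or 88.4%. The genes of a class are not replicates of each other, so shares and medians are given here as descriptions and no test between classes was run.

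The strength of the promoter peaks was ordered by class in the same way in both replicates. The fold enrichment is the ratio of summit fragments to a background, which was never under 4.77 fragments in replicate 1 and 3.41 in replicate 2. Most of the open promoters of these genes stood at that floor in replicate 1 and many in replicate 2. For those the value follows the summit fragments alone and is not scaled to the surroundings. In replicate 1 it had a median of 10 at mitotic genes, 7.28 at S-phase genes and 6.06 at G1 genes. In replicate 2 the medians were 11.3, 8.81 and 7.28. Over both replicates the mitotic median was 10.7 ± 0.904 (SD, n = 2), the S-phase median 8.04 ± 1.08 (SD, n = 2) and the G1 median 6.67 ± 0.860 (SD, n = 2), beside 8.89 ± 1.06 (SD, n = 2) for all open promoters. The genes of the classes overlapped widely, from 5.02 to 8.49 for G1, 4.33 to 21.8 for S-phase and 5.2 to 24.8 for mitotic genes in replicate 1, and the SD covers the replicates and not the spread among genes. Only 2 of the 7 open G1 promoters stood above the median of all open promoters, and 10 of the 15 open mitotic promoters did, 7 of them in the top quartile.

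**Figure D1:**
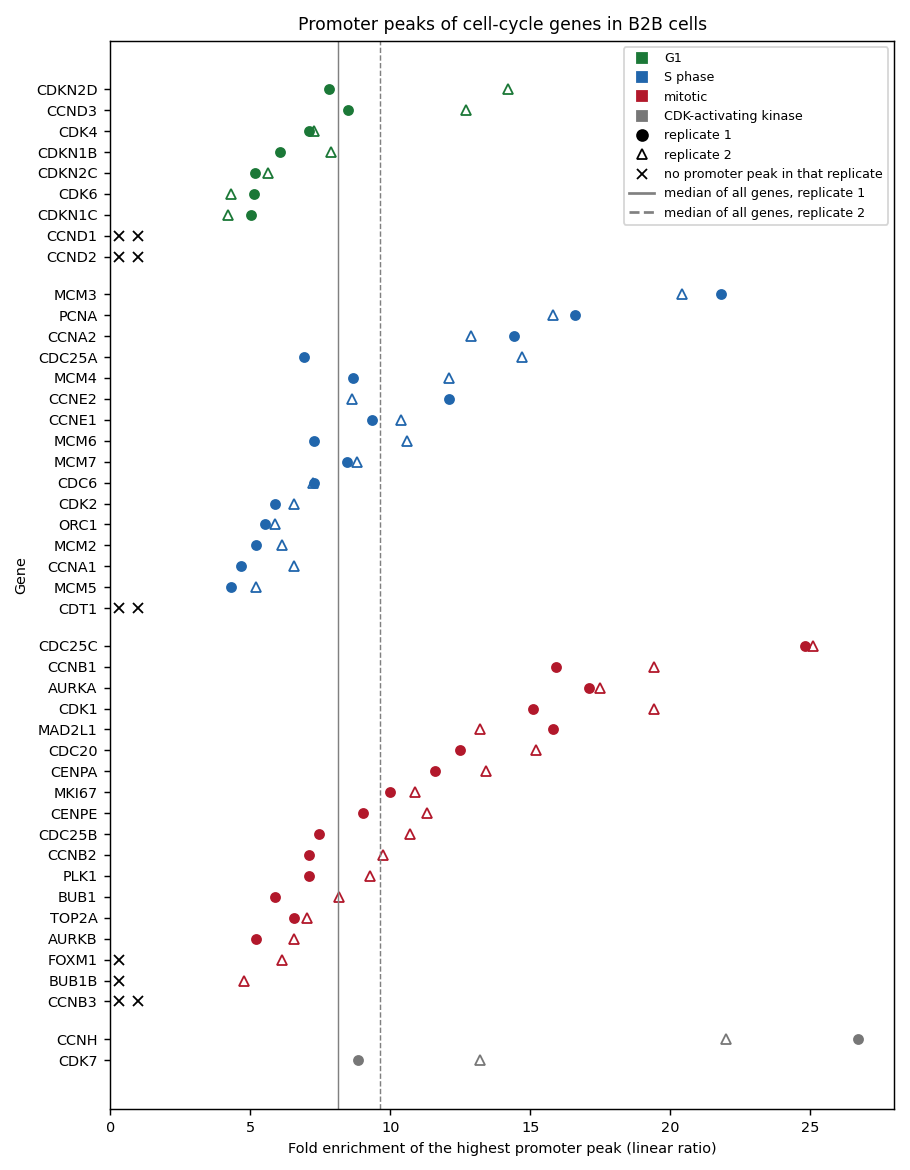
Fold enrichment of the highest promoter peak (x axis, linear ratio) for each of the 45 genes (y axis), with replicate 1 as filled circles, replicate 2 as open triangles, crosses where a replicate had no promoter peak, and grey lines at the median of all open protein-coding promoters in each replicate (solid for replicate 1, dashed for replicate 2). CDC25C and CCNH lie farthest to the right, most G1 genes lie left of the lines, and CCND1, CCND2, CDT1 and CCNB3 have a cross for both replicates.

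Among the G1 genes, the D-type cyclins differed most from one another. CCND3 (chromosome 6, TSS at 41941808, hg38) had a promoter peak with a fold enrichment of 8.49 in replicate 1 and 12.7 in replicate 2, its summit 74 and 46 bp upstream of the TSS. CCND1 and CCND2, the other D-type cyclins, had no promoter peak in either replicate, although their promoters hold 76 and 47 CpG dinucleotides and 73.6% and 56.0% of all genes in the same CpG groups had one. The difference among the 3 cyclins was the same in both lists.

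At CCND1 (chromosome 11, TSS at 69641156) the nearest peak of replicate 1 had its summit 2.03 kb upstream of the TSS, with a fold enrichment of 3.64 and 20 fragments. Its −log10 q of 4.81 was among the weakest of that list, since 1.65% of the peaks had a lower one. In replicate 2 the nearest summit lay 33.9 kb downstream, 311 bp from the TSS of LTO1. No distal region shared by the replicates lay within 50 kb, and none of the 6 annotated TSSs of CCND1 had a peak within 1 kb. At CCND2 (chromosome 12, TSS at 4273762) the nearest summits lay 34.3 kb downstream in both replicates, with fold enrichments of 5.89 and 8.16. The region they share lay in an annotated exon where TIGAR and an unnamed gene model overlap. Its summit was 259 bp from an annotated TSS that is not one of CCND2.

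The G1 kinases were open but weak. CDK4 had fold enrichments of 7.1 and 7.28 in replicates 1 and 2. CDK6 had 5.13 and 4.30, at the 4.14 percentile of all open promoters. CDK6 also had a pair of open regions inside the gene, 2.55 and 3.38 kb downstream of the canonical TSS, which lay 104 and 719 bp from another annotated TSS of the same gene.

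All 4 genes of the CDK inhibitors had a promoter peak in both replicates, with a median fold enrichment of 6.19 ± 0.813 (SD, n = 2). CDKN1C, which encodes p57 and is expressed from the maternal allele, had the lowest mean of all 39 open promoters, from fold enrichments of 5.02 and 4.20. CDKN1B, which encodes p27, had 6.06 and 7.87. CDKN2D, which encodes p19 of the INK4 family, had 7.80 and 14.2 and was among the genes that differed most between replicates, with 44 and 75 fragments at the summit. At CDKN2C, which encodes p18, the canonical promoter had 5.16 and 5.65, and a stronger region with 8.70 and 9.84 lay 1.69 kb upstream, 148 bp from another annotated TSS of CDKN2C. The promoters of CDK6 and CDKN1C are the 2 members that had no peak in both replicates once equal numbers of the strongest peaks were kept, which left 5 of 9 G1 genes.

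Among the S-phase genes, the cyclins were all open, at different strengths. CCNA2, the cyclin A of dividing somatic cells, had fold enrichments of 14.4 and 12.9, and CCNA1, which is known mainly from the germ line, had 4.68 and 6.57. CCNE1 had 9.36 and 10.4. CCNE2 had 12.1 and 8.65 with its summits 546 and 551 bp upstream of the TSS, farther than at any other of these genes. CDK2, the partner of these cyclins, had 5.89 and 6.57, and its window also holds the TSS of PMEL. CDC25A, a phosphatase that activates CDK2, had 6.93 and 14.7, the largest difference between replicates among all 39 genes, with 39 and 64 fragments.

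The 6 MCM genes, whose products form the replicative helicase, were all open but spanned a wide range. MCM3 (chromosome 6, TSS at 52284742) had 21.8 and 20.4, above 98.8% of all open promoters, with 129 and 122 fragments. MCM5 had 4.33 and 5.21, at the 4.63 percentile, with 24 and 22 fragments. Both replicates thus put MCM3 at the top and MCM5 at the bottom of the S-phase genes. Of the others, MCM2 had 5.2 and 6.12, MCM6 had 7.28 and 10.6, MCM7 had 8.45 and 8.81, and MCM4 had 8.66 and 12.1. PCNA, the sliding clamp of the polymerases, was second among S-phase genes, with 16.6 and 15.8. The licensing genes CDC6 and ORC1 were lower, with 7.28 and 7.25 for CDC6 and 5.54 and 5.89 for ORC1.

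CDT1, which loads the MCM complex together with CDC6, was the 1 S-phase gene without a promoter peak in either replicate. Its TSS lies at 88803789 on chromosome 16 and has 121 CpG dinucleotides within 500 bp, in the most CpG-rich of 10 groups of promoters, of which 72.6% had a peak in both replicates. The nearest summits lay 7.70 and 7.75 kb downstream, near the TSS of APRT, with fold enrichments of 3.98 and 4.30.

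Among the mitotic genes, several promoters were strong. CDC25C, the phosphatase that activates CDK1 at entry into mitosis, had fold enrichments of 24.8 and 25.1 with 170 and 190 fragments, above 99.8% of all open promoters. CCNB1 had 15.9 and 19.4, CDK1 had 15.1 and 19.4, and AURKA, a kinase of the spindle poles, had 17.1 and 17.5. MAD2L1, of the spindle checkpoint, had 15.8 and 13.2, and CDC20, the activator of the anaphase-promoting complex, had 12.5 and 15.2. In each of these the 2 replicates lay on the same side of the median of all genes.

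Other mitotic promoters were moderate or weak. CCNB2 had fold enrichments of 7.1 and 9.74 and PLK1, a kinase of mitotic entry, had 7.1 and 9.29. AURKB, the kinase of the chromosomal passenger complex, was the weakest open promoter of this class, at 5.2 and 6.57, and TOP2A, which untangles sister chromatids, had 6.58 and 7.02. MKI67, the gene of the Ki-67 proliferation marker, had 10 and 10.9, near the median of its class. The centromere genes CENPA and CENPE were also close to it, with 11.6 and 13.4 for CENPA and 9.01 and 11.3 for CENPE. CDC25B, a phosphatase of mitotic entry, had 7.45 and 10.7, and BUB1, of the spindle checkpoint, had 5.89 and 8.16.

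FOXM1 and BUB1B passed in replicate 2 alone. FOXM1, a transcription factor that works with MuvB at mitotic genes, had a peak of 6.12 with 26 fragments in replicate 2, with its summit 42 bp upstream of its TSS and 7 bp from the TSS of the divergent gene RHNO1, and none in replicate 1. BUB1B, a spindle checkpoint kinase gene, had 4.76 with 20 fragments in replicate 2, where 13.7% of the peaks had a lower −log10 q, and the nearest peak of replicate 1 lay 52 kb away. CCNB3, a cyclin known mainly from meiosis, had no peak in either replicate within 50 kb of its TSS, and the nearest summit lay 282 kb upstream in both. Its promoter is the 1 mitotic promoter with a low CpG count, 29, and 21.0% of the genes in its CpG group had a peak in both replicates.

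CDK7 and CCNH encode the kinase and the cyclin of the complex that activates the other CDKs and belongs to the transcription factor TFIIH. CCNH had fold enrichments of 26.7 and 22.0 with 223 and 186 fragments, the highest of all 45 genes in replicate 1 and second to CDC25C in replicate 2. CDK7 had 8.84 and 13.2. CDC25C and CCNH lie past 80 Mb of chromosome 5 (a limit set once values were known), where the 382 open promoters had a median of 75 fragments in either replicate, against 46 and 45 on the other chromosomes. CCNB1 and CDK7 lie 67.7 kb apart on the rest of that chromosome, where the medians were 55 and 52. The part of the raised pileup in these ranks was not tested, and without the genes on chromosome 5 the mitotic median was 9.94 ± 1.32 (SD, n = 2).

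Across the 39 open promoters the replicates ranked the genes alike, with a Spearman correlation of 0.9 across genes, which share both libraries and are not independent, beside 0.857 across the 10456 protein-coding genes. The fold enrichment was higher in replicate 2 for 30 of the 39, with a median ratio of 1.15 beside 1.14 for all genes. CDC25A (2.12), CDKN2D (1.83), CCND3 and CDK7 (both 1.49) had the largest ratios of replicate 2 to replicate 1. In both replicates the summit was at most 250 bp from the TSS for 36 of the 39, or 92.3%, beside 73.3% of all open promoters. For 37 of the 39 it was upstream in both, with CCNA2 (3 bp downstream in replicate 1) and CCNB2 (334 bp downstream in replicate 2) as the exceptions, beside 68.1% of all open promoters.

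The promoter sequences, which the choice of genes and the peaks did not use, differed between the classes. The window from 250 bases before to 50 after the canonical TSS was read from hg38 and searched on both strands. The CHR letters, TTTGAA or TTCGAA, were in the promoters of 15 of 18 mitotic genes, 1 of 16 S-phase genes and 1 of 9 G1 genes, against 12.8% of all protein-coding promoters. The mitotic genes without them were CCNB1, CCNB3 and CENPE. At 11 of the 18 mitotic genes the letters began within the 70 bases before the TSS, a stretch chosen after the positions were seen, and at 10 of these TTTGAA stood on the strand of the gene, against 1.24% of all promoters and none of the 25 G1 and S-phase promoters. A match of these letters describes the sequence and does not show that a complex is bound. Variants of the letters were not searched, so a promoter without a match is not shown to lack the element.

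The 30 bases around the CHR nearest to the TSS are printed for 10 of these 11 mitotic promoters, to show the element with the bases beside it. They run 5′ to 3′ on the strand of the gene. Each line was cut around the CHR, so the CHR stands at the same point of each by design. Its start lay 13 bases before the TSS at CDK1 and 65 at CDC20, for example. The CHR of AURKA is not printed because it runs across the TSS. Capitals mark the CHR and, in the first 3 lines, the GCGG of the cell cycle-dependent element (CDE) that stands 4 bases before it.
CDC25C (chr5:138331823-138331852, minus strand): tactgggctgGCGGaaggTTTGAAtggtca
CDK1 (chr10:60778447-60778476, plus strand): gccctttagcGCGGtgagTTTGAAactgct
AURKB (chr17:8210603-8210632, minus strand): tggggccgggGCGGgagaTTTGAAaagtcc
CCNB2 (chr15:59105099-59105128, plus strand): ggcgcaagcgacgcggtaTTTGAAtcctgg
PLK1 (chr16:23678842-23678871, plus strand): aacgttcccagcgccgcgTTTGAAttcggg
MKI67 (chr10:128126441-128126470, minus strand): TTTGAAtcttcgttttcgTTTGAAttgggc
CENPA (chr2:26786020-26786049, plus strand): agtgggcggagcgagcgaTTTGAAcgcgag
BUB1B (chr15:40161028-40161057, plus strand): ccgcgcgggaccgttaaaTTTGAAacttgg
CDC25B (chr20:3796254-3796283, plus strand): gcgcggctgctgttatttTTCGAAtatata
CDC20 (chr1:43358898-43358927, plus strand): cggttgcgacggttggatTTTGAAggagcc

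The tandem of both, GCGG and then TTTGAA after any 4 bases, was rare in the genome, in 27 of the 20007 promoters or 0.135%. It was in 3 of the 18 mitotic promoters, CDC25C, CDK1 and AURKB, and in none of the G1 or S-phase promoters. These 3 promoters did not share a strength of accessibility: CDC25C and CDK1 were among the strongest of the class and AURKB was the weakest open one. All the stretches above lay inside a peak in both replicates except that of BUB1B, which lay in a peak of replicate 2 only. The summits lay farther upstream than the CHR at each of these genes except CCNB2, for example 156 and 159 bp before the TSS at CDC25C, where the CHR begins 30 bases before it.

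**Figure D2:**
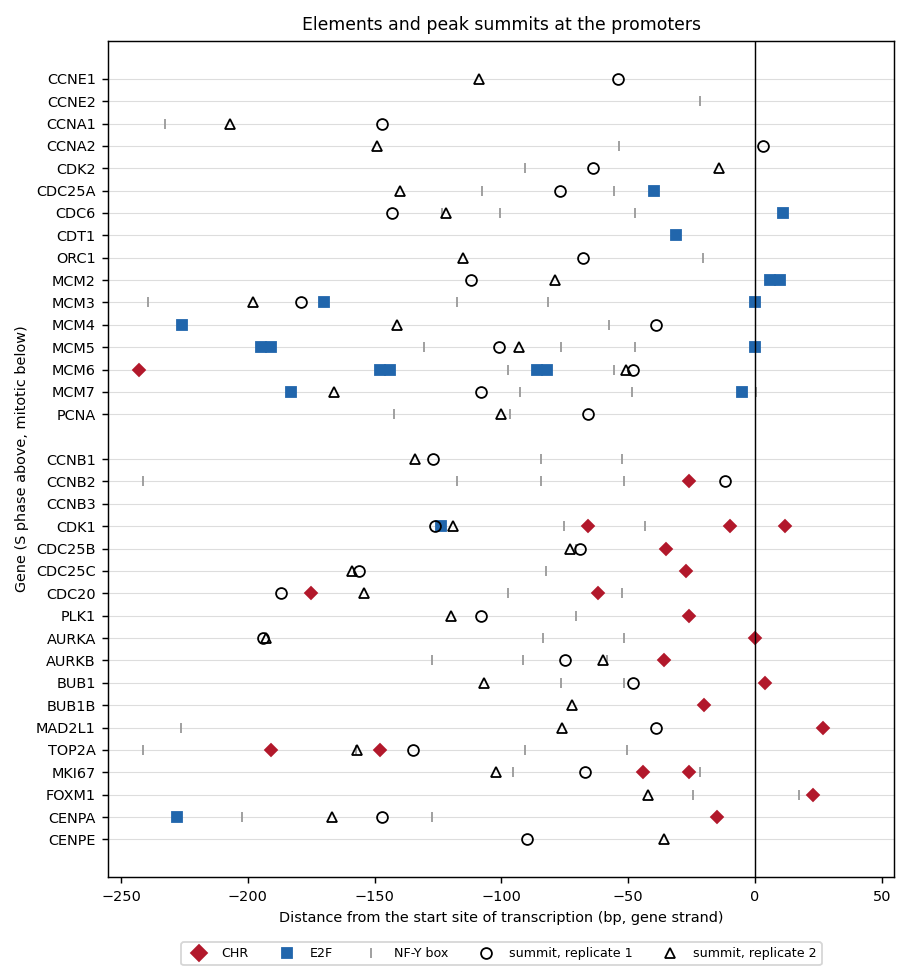
Positions of the CHR (red diamonds), E2F (blue squares) and NF-Y (grey ticks) letters and of the peak summits of replicate 1 (open circles) and replicate 2 (open triangles) along the promoters of the S-phase genes (top) and mitotic genes (bottom), in bp from the TSS on the strand of the gene; summits outside the drawn window, as at CCNE2, are left out. The CHR diamonds of the mitotic genes gather just left of the TSS, and the summits lie mostly farther left.

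The E2F letters, TTTCCCGC, TTTCGCGC, TTTGCCGC or TTTGGCGC, were most frequent in the S-phase class. They were in 9 of 16 S-phase promoters, 2 of 18 mitotic promoters (CDK1 and CENPA) and 1 of 9 G1 promoters (CCND1), against 4.36% of all promoters. All 6 MCM promoters held them, with CDC25A, CDC6 and CDT1, and no cyclin or CDK of the S-phase class did. Only these exact letters were counted, so a promoter without them is not shown to lack an E2F site. CDT1 and CCND1 hold the letters and had no promoter peak in either replicate. MCM5, with 3 matches, was the weakest S-phase promoter, and MCM3, with 2, the strongest.

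Stretches with these letters are printed on the strand of the gene, with the E2F letters in capitals. They show a site without overlap at MCM3 and MCM7 and the overlapping sites of MCM5 and MCM6. Beside them are the sites of CDC25A and of the promoters without a peak, CDT1 and CCND1. MCM3, MCM5 and MCM7 each hold another match nearer to the TSS, which is not printed.
MCM3 (chr6:52284898-52284927, minus strand): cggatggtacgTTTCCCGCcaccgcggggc
MCM5 (chr22:35399932-35399961, plus strand): agccagaagTTTCGCGCCAAAttgttccgc
MCM6 (chr2:135876519-135876608, minus strand): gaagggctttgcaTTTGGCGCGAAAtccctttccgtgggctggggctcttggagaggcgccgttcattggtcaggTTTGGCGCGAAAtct
MCM7 (chr7:100101566-100101595, minus strand): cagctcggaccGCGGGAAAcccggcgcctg
CDC25A (chr3:48188443-48188472, minus strand): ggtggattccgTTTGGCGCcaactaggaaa
CDT1 (chr16:88803743-88803772, plus strand): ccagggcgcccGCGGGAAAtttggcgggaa
CCND1 (chr11:69640998-69641027, plus strand): tgctcccggcgTTTGGCGCccgcgccccct

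In MCM5, and in both sites of MCM6, the letters on either strand overlap, so that each run of 12 capitals is 2 matches. The first MCM6 site starts 152 and the second 90 bases before the TSS, and both lie in the peak of either replicate, whose summits were 48 and 51 bp before the TSS. The CCAAT letters were present at least 2 times in 11 of 18 mitotic promoters, 7 of 16 S-phase promoters and 2 of 9 G1 promoters, against 12.4% of all promoters. CHR letters and at least 2 CCAAT matches were found together in 10 of 18 mitotic promoters, against 1.86% of all promoters and 1 of the 25 G1 and S-phase promoters, that of MCM6.

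**Figure D3:**
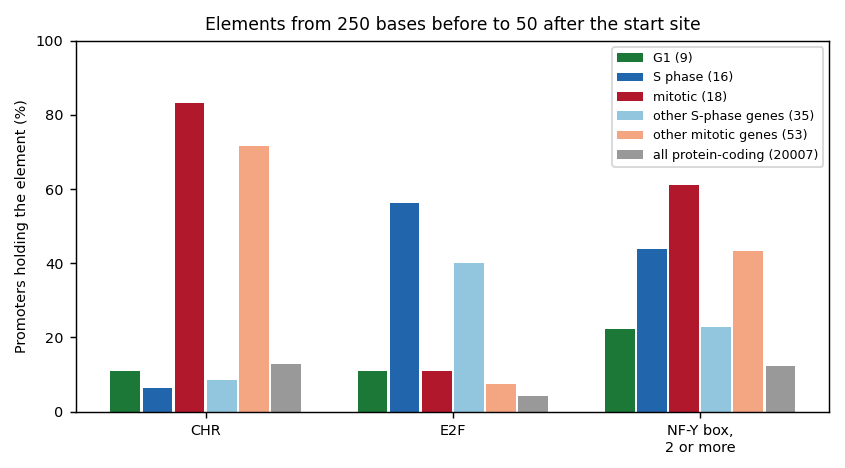
Share of promoters (y axis, %) that hold the CHR, E2F or at least 2 NF-Y letters from 250 bases before to 50 after the TSS, for the 3 classes, for other S-phase and mitotic genes and for all protein-coding genes, with the number of genes in brackets. The CHR bar stands at 83.3% for the mitotic genes and 71.7% for the other mitotic genes, against 12.8% for all genes, and the E2F bar is highest for the S-phase genes at 56.2%.

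Some of the promoters are shared with a neighbour. Another protein-coding TSS lay within 1 kb of the TSS of CCND2, CDK2, ORC1, MCM4, MCM7, AURKA and FOXM1. For ORC1 (PRPF38A, 179 bp away), MCM4 (PRKDC, 805 bp), MCM7 (AP4M1, 246 bp), AURKA (CSTF1, 430 bp), CDK2 (PMEL, 788 bp) and FOXM1 (RHNO1, 49 bp) the neighbour is transcribed away from the cell-cycle gene on the opposite strand. The peaks of these promoters cannot be told apart between the members of a pair. At CCND2 the other TSS is at the same base and belongs to an unnamed gene model.

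Away from promoters, the number of open regions near the cell-cycle genes was close to that of all genes. Regions with a peak in both replicates, more than 1 kb from the canonical TSS of every protein-coding gene, numbered 37 within 50 kb of the 45 genes, or 0.822 per gene, beside 0.702 per gene for all protein-coding genes. At least 1 such region was present at 22 of the 45 genes, or 48.9%, beside 41.2% of all genes. The mean was 1.11 per G1 gene, 0.750 per S-phase gene and 0.778 per mitotic gene, while replicate 1 alone gave 1.44, 0.875 and 0.833 and replicate 2 alone gave 2.22, 1.19 and 1.44. The G1 genes were highest in each, and the order of the S-phase and mitotic genes differed between the lists. Of the 37, 18 (48.6%) lay between genes, 12 (32.4%) in introns and 7 (18.9%) in exons. The shares of all distal regions were 50.6%, 42.5% and 6.81%. Within 1 kb of the TSS of some non-canonical transcript lay 9 of the 37, a share that was not computed for all distal regions. Most of these 9 were regions of G1 genes, at CCND2, CDK6, CDKN1B and CDKN2C. The others were at CDC6 and MCM7 of the S-phase genes and at CDK1 and CDC20 of the mitotic genes. The class means were not recomputed without the 9, so the higher G1 mean is not shown to hold away from such start sites. The median fold enrichment of the 37 was 5.41, beside 6.73 for all distal regions at any distance from a gene. That median was not computed for the regions within 50 kb of any gene.

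CDC25B and AURKB had the most distal regions, 4 each. At CDC25B 3 of them lay 11.3, 12 and 15.5 kb downstream of the TSS, between genes, with mean fold enrichments of 7.11, 5.60 and 6.42. CDC6 had 3, all in introns of RARA, the retinoic acid receptor alpha gene, 26.9 to 44.4 kb downstream, and PCNA had 3 in introns of TMEM230 and CDS2. CDK6, CDKN1B, CDKN1C, CDKN2C and CCNA2 had 2 each. The strongest of all 37 lay 38.6 kb downstream of CCNA2, between genes, with 15.2 and 17.1, above the 14.4 and 12.9 of the CCNA2 promoter. Distance alone links these regions to the genes, and chromatin loops were not analysed here.

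**Figure D4:**
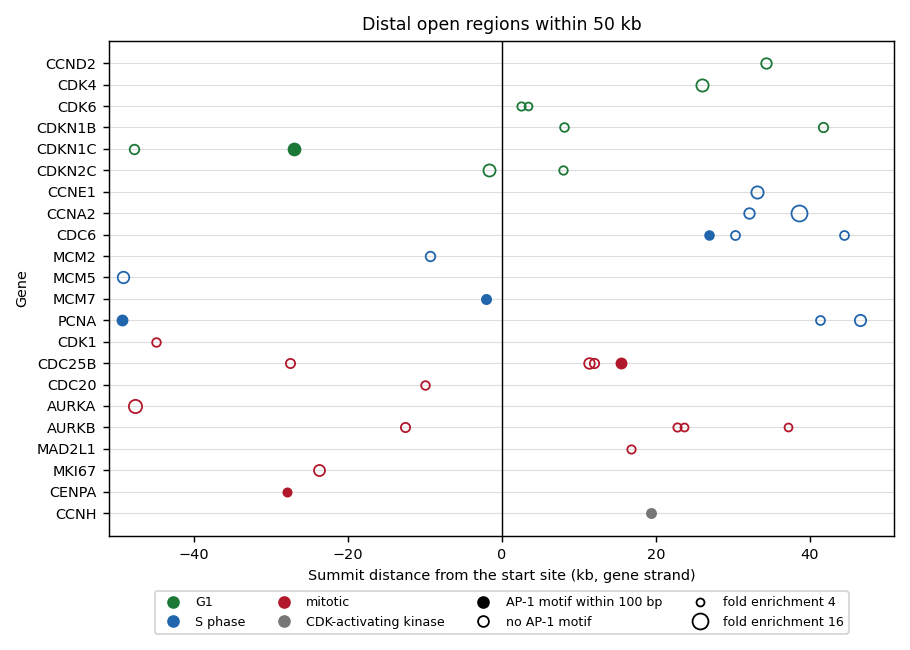
Summits of the distal open regions within 50 kb (x axis, kb from the TSS on the strand of the gene) for the 22 genes with at least 1 (y axis), coloured by class, with the point area in proportion to the mean fold enrichment and filled where the AP-1 letters lay within 100 bp of the summit. The regions are scattered on both sides of the TSS, and 7 of the 37 are filled.

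AP-1, the JUN and FOS factor that the study is about, is known to bind many distal regions. Its letters TGACTCA or TGAGTCA, which are the same site read on either strand, were searched at most 100 bp from the summit. They were found in 7 of the 37 distal regions, or 18.9%, beside 32.5% of all 15067 distal regions at any distance from a gene. For distal regions within 50 kb of any protein-coding gene, counted once for each gene, the share was 27.6%. The letters were found near CDKN1C, CDC6, MCM7, PCNA, CDC25B, CENPA and CCNH. A pair of matches lay in the regions near CDC6 and CDKN1C, which are printed with the AP-1 letters in capitals on the plus strand. The region near CDC6 is in an intron of RARA, 26.9 kb downstream of the CDC6 TSS, with fold enrichments of 4.68 and 4.99. The region near CDKN1C is in an intron of SLC22A18, 27.0 kb upstream of the CDKN1C TSS, with 7.62 and 10.4, so that it was stronger in both replicates than the CDKN1C promoter.
Region near CDC6 (chr17:40314768-40314848): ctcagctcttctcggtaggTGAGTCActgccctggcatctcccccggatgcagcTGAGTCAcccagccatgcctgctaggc
Region near CDKN1C (chr11:2912701-2912781): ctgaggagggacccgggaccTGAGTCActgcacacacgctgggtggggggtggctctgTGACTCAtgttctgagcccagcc

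Other genes of the same pathways were read in the same way. Of 106 further cell-cycle genes, 95 had a promoter peak in both replicates, or 89.6%, beside 52.3% of all protein-coding genes. By role these were 15 of 18 of G1 control, 31 of 35 of DNA replication and 49 of 53 of mitosis. Their median fold enrichment was 10.3 ± 1.39 (SD, n = 2), with 9.86 ± 2.18 for G1, 10.3 ± 2.01 for replication and 10.6 ± 0.0961 for mitosis (SD, n = 2). The medians were 8.32, 8.84 and 10.6 in replicate 1 and 11.4, 11.7 and 10.7 in replicate 2, so the order seen at the listed genes held in replicate 1 and not in replicate 2. Neither replicate had a promoter peak at POLA2 and RFC1, which encode subunits of polymerase alpha and of the clamp loader, or at RACGAP1, which acts in cytokinesis. A peak in 1 replicate alone was found at 8 genes, which include RBL1, E2F2 and E2F4 of the RB pathway, open in replicate 2.

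The promoters of these genes were searched for the same letters. The CHR letters were in 38 of 53 further mitotic genes, 3 of 35 replication genes and 4 of 18 G1 genes, against 12.8% of all promoters. The replication genes, at 8.57%, were below that share. The E2F letters were in 14 of 35 replication genes, 7 of 18 G1 genes, which include E2F1, E2F2, E2F3 and E2F5, and 4 of 53 mitotic genes. Of all promoters 4.36% held them. The share of G1 genes with E2F letters was thus 38.9%, near the 40% of the replication genes, beside 11.1% of the listed G1 genes. TTTGAA within 70 bases before the TSS on the strand of the gene was in 12 of 53 further mitotic genes, or 22.6%, in 2 of 18 further G1 genes, or 11.1%, and in none of the replication genes. The share was 55.6% for the listed mitotic genes and 1.24% for all promoters.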

How the data were processed

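ATAC-seq peak lists (narrowPeak) of 2 B2B replicates were used. Per the labels and the study's methods, the authors treated lysed cells with Tn5 and processed the reads with Bowtie2 (2.4.4), SAMtools (1.13) and MACS2 (2.2.7.1) on hg38. The Tn5 offset, the handling of mitochondrial reads and the q limit are not given in the sources used here. The deposited lists hold for each peak a fold enrichment, a linear ratio of (fragments + 1) to (local background + 1), a −log10 p and −log10 q, and a score made from the q-value. Peaks were called per replicate, and neither list was scaled to the other.

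Promoters were peaks overlapping 1 kb to either side of the canonical GENCODE (release 44) TSS, and the highest peak gave the value. Fragments were the whole number that returned the deposited −log10 p within 0.01. Peaks of the 2 lists that overlapped by at least 1 bp were merged into 37661 regions, 25366 of them with peaks in both. Distal regions were those with the summit of the higher peak over 1 kb from every canonical protein-coding TSS. Genes were grouped into 10 groups by CpG count. Python (3.11.15) with pandas (2.3.3) and pysam (0.24.0) was used. The recovery of fragments, the promoter calls, the merging of regions and the search for CHR letters were tested on simulated data, and other steps were not. The 45 genes and all lists were chosen with earlier results of these data known. Genes were named with values if they lacked a promoter peak in both replicates, had 1 of the 5 highest or 5 lowest mean fold enrichments or of the 3 largest ratios between replicates, were cyclins or CDKs, had 1 of the 5 highest numbers of distal regions, held the tandem CDE and CHR or shared the promoter window with another gene, as were further cell-cycle genes open in neither replicate. Others were named for their role, with values seen. With 1 condition there was no test. Alternatives covered the q limit, list size, windows, TSS choice and leaving out a replicate.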

Additional observations from a re-analysis of the deposited data

How the results depend on the processing

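No paired analysis was possible because both samples are of 1 condition and no result comes from a test. For the 13 results, 72 alternative values were computed, 1 of them, the mitotic median without chromosome 5, chosen after seeing the data. Of the 72, 62 stayed within the spread between replicates, or within 1.5 times a count, and 10 moved. For the class medians of fold enrichment, either replicate alone falls within that spread by the way it is computed. Those values are among the 62 and do not measure stability. With genes without a peak set at a fold enrichment of 1, the medians were 5.40 for G1 and 9.51 for mitotic genes. Distal regions per gene within 25 kb were 0.556 for G1, 0.125 for S-phase and 0.5 for mitotic genes. Within 100 kb they were 1.56 for G1, 1.44 for S-phase and 1.56 for mitotic genes, so the G1 genes were not highest there. With either replicate left out, the values within 50 kb ranged from 1.44 to 2.22 for G1, 0.875 to 1.19 for S-phase and 0.833 to 1.44 for mitotic genes. In each range replicate 2 alone gave the higher value. AP-1 letters within 50 bp of the summit were in 13.5% of the distal regions. The class order of the medians was the same under every alternative run, but few of these could have changed it. Taking the nearest peak or a 500 bp window returned the main medians. The q limit, the list size and the class of CCNA1 and CCNA2 were not varied for the medians. At the further cell-cycle genes the order did not hold in replicate 2. With 2 replicates and few fragments at a summit, weak promoters such as BUB1B and FOXM1 are near the limit of detection, and only peaks, not the signal between them, were used.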

Other observations

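Of the 27 promoters in the genome with the tandem of GCGG and, after any 4 bases, TTTGAA, 24 had a promoter peak in both replicates, beside 52.3% of all protein-coding promoters. The 24 include the pairs ERI2 and REXO5, HELQ and MRPS18C, and MSH5 and MSH5-SAPCD1, which have the same values within each pair and were counted separately. Besides CDC25C, CDK1 and AURKB they include other genes of mitosis, named here for that role, the kinetochore genes CENPF (fold enrichments of 17.3 and 15.7), NUF2 (11.6 and 16.5) and SKA1 (12 and 10.9), the spindle gene DLGAP5 (9.18 and 9.97) and CDCA3 (11.9 and 9.47). CKS1B, which encodes a CDK subunit, was lower, with 5.81 and 5.79. The histone gene H3C8 had 4.50 and 6.57, and H3C3, with the same letters, had no promoter peak in either replicate. Genes not listed here as cell-cycle genes were also among the 24, such as MAGI3 (13.3 and 13.8), SCARA3 (4.33 and 5.21) and ZNF441 (6.06 and 7.70). The genes in this paragraph other than CDC25C, CDK1 and AURKB were named after their values were seen.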
